A study of Mus musculus with 22 samples.

Results

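Aquaporins are membrane channel proteins that let water cross the cell membrane along an osmotic gradient. The strictly water-selective channels carry water through kidney tubules, glands, lung and capillaries, the aquaglyceroporins also pass glycerol and other small neutral solutes, and a few unorthodox members sit on intracellular membranes. In the kidney Aqp1 takes water back in the proximal tubule, and Aqp2, Aqp3 and Aqp4 carry vasopressin-controlled water through the principal cells of the collecting duct. The 10 aquaporin genes described here (Aqp1, Aqp2, Aqp3, Aqp4, Aqp5, Aqp6, Aqp7, Aqp8, Aqp9 and Aqp11) were taken by name from the 31053 genes of the count matrices, with earlier results of these data known.

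The study followed mice in which Nalcn, a sodium leak channel, could be deleted in Prom1-expressing cells, and counted single-cell RNA in 22 droplet libraries of 179929 cell barcodes. All of these mice carried Prom1-CreERT2 and Rosa26ZSG, that is, a recombinase switched on by tamoxifen where the Prom1 promoter is active and a ZsGreen reporter, so cells outside the recombined lineage would keep their Nalcn allele. Tissue libraries held kidney, liver, lung and stomach with epididymis in males or uterus in females, pooled into 1 library per sample, and fell into wt (5 libraries, 3 labelled male at 571 to 608 days and 2 labelled female at 611 and 654 days), het (2 libraries, both male, 551 days) and null (2 libraries, 1 labelled male at 552 days and 1 female at 611 days). Blood gave 10 libraries of non-tumour circulating ZsGreen+ cells (ntCZCs), 2 wt labelled male at 571 and 608 days, 4 het of which 3 labelled male at 551 to 610 days and 1 female at 649 days, and 4 null of which 1 labelled male at 552 days and 3 female at 551 to 613 days. One wt library of peripheral blood mononuclear cells (PBMC) came from a male of 120 days. A further 2 tissue libraries carry conflicting genotype entries and enter no comparison, which leaves 143502 tissue barcodes.

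Levels are given as CPM (the UMIs of a gene per 1000000 UMIs of the same barcodes), a UMI being 1 tagged RNA molecule, and n counts libraries. The labels name no animal, so p-values measure only the spread between libraries, which may be technical. In particular the tissue libraries of wt replicates 1 and 2, and those of het replicates 1 and 2, share sex and age, and whether each pair came from 1 mouse is not given. The same holds for ntCZC het replicates 2 and 4, and for ntCZC and tissue libraries of the same genotype, sex and age. Total UMIs ran from 8571019 to 139793927 in the tissue libraries and from 161541 to 2600526 in the ntCZC libraries. Any pair of libraries shared at most 226 barcode sequences, and a pair of tissue libraries at most 0.9% of the smaller one. The Nalcn transcript did not follow the labels: tissue libraries labelled null had 0.272 and 0.386 CPM (24 UMIs), wt libraries 0 to 0.204 CPM (39 UMIs) and het libraries 0.104 and 0.158 CPM (11 UMIs), and ntCZC and PBMC libraries had no UMI. In the tissue library labelled null replicate 3, female, 56.5% of Miox-positive barcodes held Xist UMIs alone and 2.84% held Y-linked UMIs alone. That library also held 1077 of the 1964 tissue barcodes gated below as epididymal epithelium, although uterus is the organ given for females. Genotype and sex are therefore used below as labels.

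Cell classes were gated on marker genes, none of them an aquaporin, and are called by the name of the cell type with "-like". Of 136404 tissue barcodes with at least 200 genes, 74385 (54.5%) entered a class. B cell-like barcodes (9812, median depth 1439 UMIs) served as the reference for free RNA, that is, RNA of other cells caught in a droplet. The share of them with a UMI was 4.84% for Aqp1 (35 CPM), 0.591% for Aqp3 (5.51 CPM) and 0.489% for Aqp11 (2.5 CPM), and 0.051% to 0.173% for the other 7 genes. Levels at or below these are read as background. Levels are compared between barcodes for the same gene, and no gene is ranked against another.

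**Figure D1:**
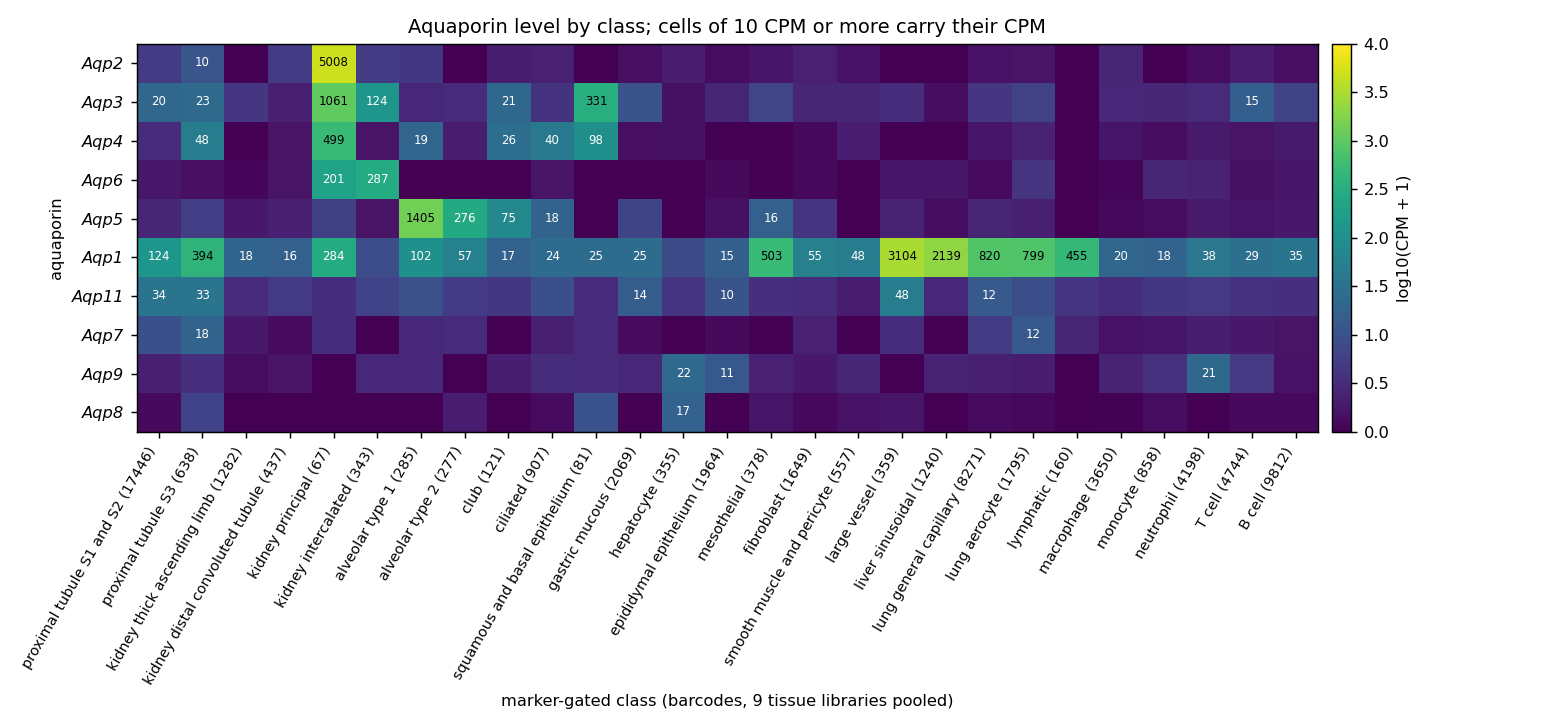
Level of the 10 aquaporins (vertical axis) in marker-gated classes and subclasses (horizontal axis, with the number of barcodes) of the 9 tissue libraries with a genotype, UMIs pooled over libraries. Colour is log10 of CPM + 1 and values of at least 10 CPM are written in; Aqp2 stands out in principal-like barcodes (5008 CPM), Aqp5 in alveolar type 1-like barcodes (1405 CPM) and Aqp6 in intercalated-like barcodes (287 CPM).

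Aqp2, Aqp5 and Aqp6 lie side by side on the plus strand of chromosome 15. In the GENCODE annotation of GRCm38 the genes span chr15:99579055-99584547 (Aqp2), chr15:99590782-99594829 (Aqp5) and chr15:99601400-99605477 (Aqp6). Gaps of 6235 and 6571 bases part them, within 26422 bases in all. Their RNA was nevertheless read from different cells, namely principal-like, alveolar type 1-like and intercalated-like barcodes. For that reason their promoters are shown, each 300 bases on the plus strand of GRCm38.p6 from 250 bases before the RefSeq start site to 50 after it. They span chr15:99578806-99579105 (Aqp2), chr15:99590778-99591077 (Aqp5) and chr15:99600950-99601249 (Aqp6), and the RefSeq starts of Aqp5 and Aqp6 differ from the GENCODE ones. Capitals mark matches, on either strand, to the TATA box (TATAAA), the half-site of the cAMP response element (TGACG), the GC box (GGGCGG), the GATA site (AGATAA) and the E-box (CACGTG).
Aqp2: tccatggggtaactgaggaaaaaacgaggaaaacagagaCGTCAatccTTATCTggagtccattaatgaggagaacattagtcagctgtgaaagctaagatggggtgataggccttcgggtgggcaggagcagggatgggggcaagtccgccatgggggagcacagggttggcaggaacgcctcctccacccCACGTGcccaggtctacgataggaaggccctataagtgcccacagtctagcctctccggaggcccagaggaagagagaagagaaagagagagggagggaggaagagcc
Aqp5: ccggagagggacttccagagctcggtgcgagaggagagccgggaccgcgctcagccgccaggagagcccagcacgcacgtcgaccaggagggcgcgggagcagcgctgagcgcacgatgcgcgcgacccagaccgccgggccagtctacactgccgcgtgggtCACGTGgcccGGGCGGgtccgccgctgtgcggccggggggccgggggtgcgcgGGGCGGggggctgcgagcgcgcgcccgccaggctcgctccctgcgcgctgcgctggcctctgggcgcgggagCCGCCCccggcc
Aqp6: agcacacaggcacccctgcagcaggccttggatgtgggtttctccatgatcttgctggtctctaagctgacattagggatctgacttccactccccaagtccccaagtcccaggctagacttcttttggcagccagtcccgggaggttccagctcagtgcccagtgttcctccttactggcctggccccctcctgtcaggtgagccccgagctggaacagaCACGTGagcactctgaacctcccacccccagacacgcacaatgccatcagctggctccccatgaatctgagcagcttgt

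The E-box was present in all 3 neighbours, starting at -58 (Aqp2), -87 (Aqp5) and -29 (Aqp6) from the start site, and also in the Aqp8 promoter. Of all 32851 RefSeq promoters of this length, 7.15% hold it. Only the Aqp2 promoter among the 9 members searched (Aqp4 not used here) held the response element half-site, at -211 on the minus strand (20.8% of all promoters). In Aqp2 the GATA site (11.2% of all promoters) followed at -202, also on the minus strand, and the Aqp7 promoter held a GATA site as well. The TATA box (13.6%) was matched in none of these 3. The Aqp5 promoter held 3 copies of the GC box (35.7% of all promoters hold it) and had 79.7% G and C bases, against 56% in Aqp2, 58.7% in Aqp6 and a median of 52.7% over all promoters. The motifs were chosen after matches had been seen, do not overlap one another in these windows, and are a description of letters only.

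The other members lie apart. Aqp7 (chr4:41033074-41048139) and Aqp3 (chr4:41092722-41098183), both aquaglyceroporins on the minus strand, are 44583 bases from each other. Aqp1 spans chr6:55336432-55348555, Aqp8 chr7:123462291-123468004, Aqp11 chr7:97724006-97738289 and Aqp9 chr9:71110659-71168682, and Aqp4 is on chromosome 18. Genes on the opposite strand overlap Aqp4 (AC133525.2) and Aqp9 (Gm47268 and Gm32511), and whether the counting used strand is not given in the sources used here.

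**Figure D2:**
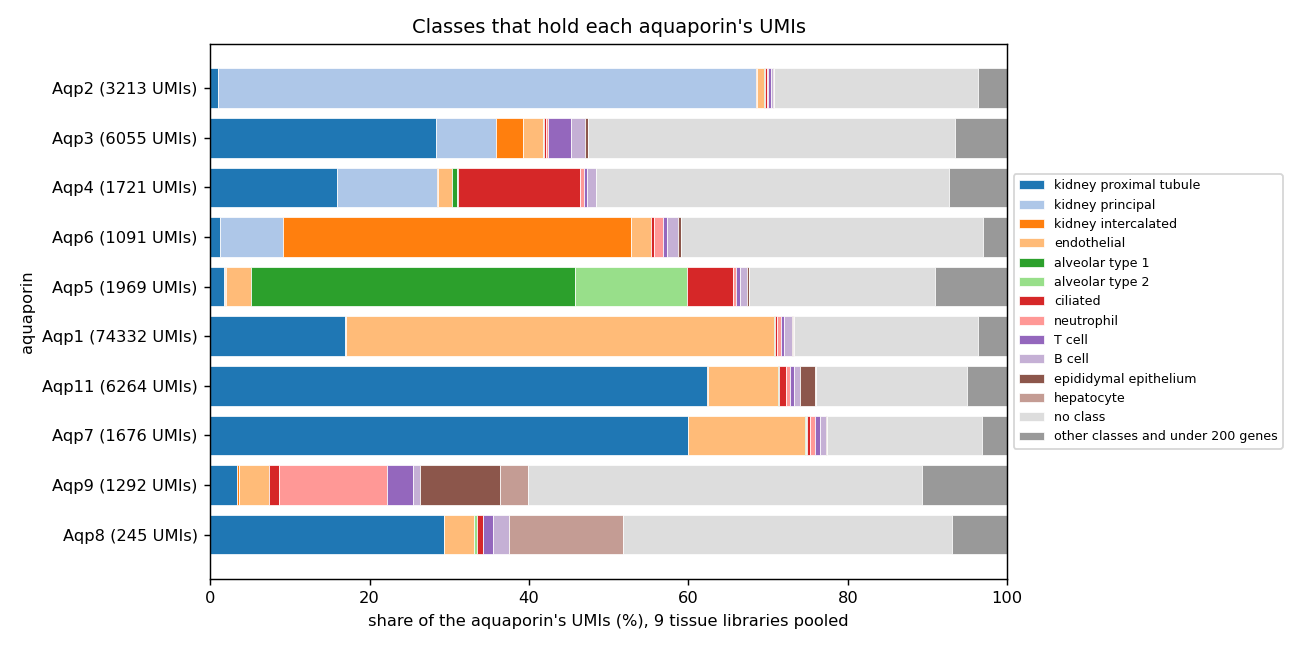
Share of each aquaporin's UMIs (percent, horizontal axis) that fell in each marker-gated class in the 9 tissue libraries, 1 stacked bar per gene, with barcodes of no class in grey. Aqp1 UMIs lay mainly in endothelial-like barcodes (53.7%) and Aqp2 UMIs in principal-like ones (67.4%).

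Aqp2, the vasopressin-regulated water channel of the apical membrane, was concentrated in very few barcodes. Principal-like barcodes held 67.4% of its 3213 tissue UMIs and 0.093% of all UMIs. They were numerous enough for a level (at least 10 barcodes) in 3 libraries, with Aqp2 at 4029 CPM in wt replicate 1, 4438 in wt replicate 2 and 5851 in null replicate 2. Intercalated-like barcodes of the same libraries had 9.27, 0 and 16.6 CPM, so the classes did not overlap in any of them. A UMI of Aqp2 was present in 76.1% of principal-like barcodes (66.2% after thinning each to 1000 UMIs, median depth 4002), against 0.082% of B cell-like ones (0.063% thinned).

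Aqp6, an anion-permeable aquaporin of the intracellular vesicles of acid-secreting intercalated cells, showed the opposite pattern. In intercalated-like barcodes of 8 libraries its level ranged from 39.6 CPM (wt replicate 3) through a median of 319 to 432 CPM (null replicate 2). Principal-like barcodes had 0, 41.5 and 0 CPM in the 3 libraries with enough of them, and the higher pooled level of 201 CPM rested on 87 UMIs in 3 barcodes. The share of intercalated-like barcodes with a UMI was 19.8% (12% thinned, median depth 3328), against 0.122% of B cell-like ones (0.083% thinned).

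Aqp3, an aquaglyceroporin of the basolateral membrane through which the water leaves the principal cell, was measured in both classes. It stood at 343, 1045 and 1736 CPM in the principal-like barcodes of wt replicate 1, wt replicate 2 and null replicate 2. In intercalated-like barcodes of 8 libraries it ranged from 19.8 to 191 CPM around a median of 92.4, below every principal-like value. Of principal-like barcodes 70.1% had an Aqp3 UMI (48.1% thinned) and of intercalated-like ones 20.1% (7.01% thinned).

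Aqp4, the other basolateral water channel of the principal cell, varied more between libraries. Its principal-like level was 590 CPM in wt replicate 1, 282 in wt replicate 2 and 64.3 in null replicate 2, the last from 1 UMI. A single barcode gave 48 of the 74 UMIs in wt replicate 1, without which the level there was 230 CPM. Intercalated-like barcodes had no Aqp4 UMI in 7 of 8 libraries and 4.95 CPM in wt replicate 3, so the classes again did not overlap.

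The paired comparison within the 3 libraries (edgeR, library as a block, principal against intercalated-like) could be run on 1644 genes, of which 6.08% were called at an adjusted p under 0.05. Aqp2 was higher by 9.18 on the log2 scale (SE 0.93, adjusted p = 0.000355) and Aqp6 lower, with a log2 change of -4.23 (SE 0.81, adjusted p = 0.00942). Without null replicate 2 Aqp6 differed by -4.09 and did not pass (adjusted p = 0.104), and without wt replicate 1 it differed by -2.98 (adjusted p = 0.00198). Without wt replicate 2 no principal-like Aqp6 UMI was left, so a fitted fold depends on the prior count. Aqp3 differed by 2.41 (SE 0.7, adjusted p = 0.076) and did not pass, although DESeq2 called it. Aqp4 was too low in the intercalated-like class for the filter. Of 12 genes of water balance and osmolyte handling, 5 were tested: Avpr2, the vasopressin receptor of the principal cell, is a gate marker, Avpr1a, another vasopressin receptor, was lower by a log2 change of -7.63 (adjusted p = 0.00394), and the other 3 did not pass.

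**Figure D3:**
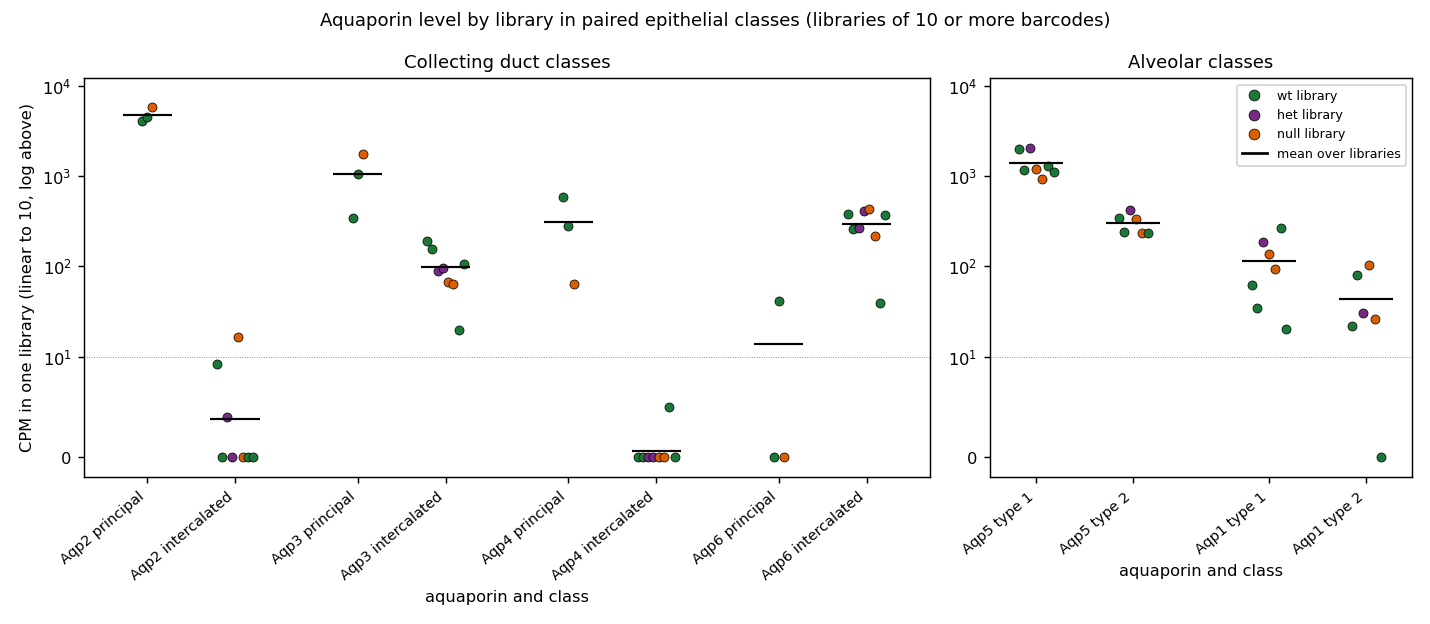
Aquaporin CPM per tissue library (points, horizontal bars the mean over libraries) in principal-like and intercalated-like barcodes for Aqp2, Aqp3, Aqp4 and Aqp6, and in alveolar type 1-like and type 2-like barcodes for Aqp5 and Aqp1. The vertical axis is linear up to 10 CPM and logarithmic above; Aqp5 in alveolar type 1-like barcodes (922 to 2063 CPM) lies above every alveolar type 2-like library (233 to 417 CPM).

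Barcodes with at least 5 UMIs of a collecting duct aquaporin show how far these channels were read together. Of 66 such barcodes for Aqp2, 41 were principal-like and 22 entered no class. Aqp3 was also present in 51 of the 66 (77.3%), Aqp4 in 33 (50%) and Aqp6 in 6 (9.09%), against 2.18%, 0.455% and 0.201% of all barcodes. Of 53 barcodes with at least 5 Aqp6 UMIs, 25 were intercalated-like, 21 had no class and 3 were principal-like. Aqp3 was also present in 26 of the 53 (49.1%) and Aqp2 in 10 (18.9%, against 0.231% of all barcodes). These barcodes are deeper than most, so the shares are a description. The barcodes with the highest Scrublet scores were called doublets, in a share set beforehand at 0.8% per 1000 barcodes of the library. This gave 1.5% to 22.3% of the barcodes of a tissue library and is no measured doublet rate. The collecting duct comparison could not be run without these barcodes, since too few libraries kept 10 barcodes of each class for a fit.

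Aqp5, the apical water channel of alveolar type 1 cells and of secretory glands, was read chiefly in the lung classes. Alveolar type 1-like barcodes ranged from 922 CPM (null replicate 3) through a median of 1184 to 2063 CPM (het replicate 1) over 7 libraries. Alveolar type 2-like barcodes of 6 libraries ranged from 233 to 417 CPM. Every type 1-like library was higher than every type 2-like library, and the paired change over 6 libraries was 2.06 on the log2 scale (SE 0.25, edgeR adjusted p = 1.18e-06), in a comparison that called 60.5% of its 879 genes. A UMI was found in 77.5% of type 1-like barcodes (71.5% thinned, median depth 1436), 53.4% of type 2-like ones (24.8% thinned, 3333) and 0.173% of B cell-like ones. The Aqp4-anchoring genes Dag1 (2.61) and Agrn (3.54), the 2 of that list tested here, were also higher in type 1-like barcodes. Club-like barcodes, secretory cells of the airway, had 74.6 CPM and ciliated-like ones 17.5 CPM.

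Aqp1, the constitutive water channel of capillaries and of the proximal tubule, was read in endothelium of several kinds as well as in the kidney. Endothelial-like barcodes held 53.7% of its 74332 tissue UMIs against 9.43% of all UMIs, proximal tubule-like barcodes 16.9% against 19.7%, and 23.1% lay in barcodes of no class. In endothelial-like barcodes the 9 libraries ranged from 400 CPM through a median of 1022 to 1223 CPM, and in fibroblast-like ones from 11.1 through 34.9 to 88.4 CPM, with no overlap. The change of 4.09 on the log2 scale (SE 0.27, edgeR adjusted p = 9.65e-11) stood in a comparison that called 45.9% of 9097 genes. Of 8 glycerol handling genes tested there 4 were higher in endothelial-like barcodes and 0 lower, led by the lipase genes Lipe (2.32) and Mgll (2.11). The water balance list had 2 of 7 higher (Slc6a6, 2.31, and Nfat5, 0.85) and 1 lower (Slc5a3, -0.8), and the anchoring list described below had 3 higher and 4 lower of 7. Of endothelial-like barcodes 50.8% had an Aqp1 UMI (40.9% thinned, median depth 1707).

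Among endothelial subclasses, large vessel-like and liver sinusoidal-like barcodes were highest. Large vessel-like barcodes ranged from 1017 through a median of 1876 to 9321 CPM, and liver sinusoidal-like ones from 200 through 2112 to 2591 CPM, so these neighbours overlapped widely. The 9321 CPM belonged to 18 barcodes of wt replicate 1, in which 1 barcode gave 23.7% of the UMIs, and the level without it was 8497 CPM. General capillary-like (325 through 933 to 1201 CPM) and aerocyte-like barcodes (304 through 744 to 1240 CPM), the capillary cell types of the alveolus, came next, followed by mesothelial-like (median 528 CPM) and lymphatic-like ones (median 484 CPM), all overlapping with one another. Between general capillary-like and aerocyte-like barcodes Aqp1 differed by 0.1 on the log2 scale (SE 0.08, adjusted p = 0.48, 9 libraries). That comparison called 19.1% of 7680 genes and 0 members, and 0 members had an unadjusted p under 0.05 with edgeR or a call with DESeq2. Aqp7 did not reach the count filter, and without it Aqp7 was lower in general capillary-like than in aerocyte-like barcodes (-1.34, adjusted p = 0.000209, 8.94% of 20497 genes called), with more CPM in the aerocyte-like class in 7 of 9 libraries and no aerocyte-like UMI in wt replicates 1 and 3.

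**Figure D4:**
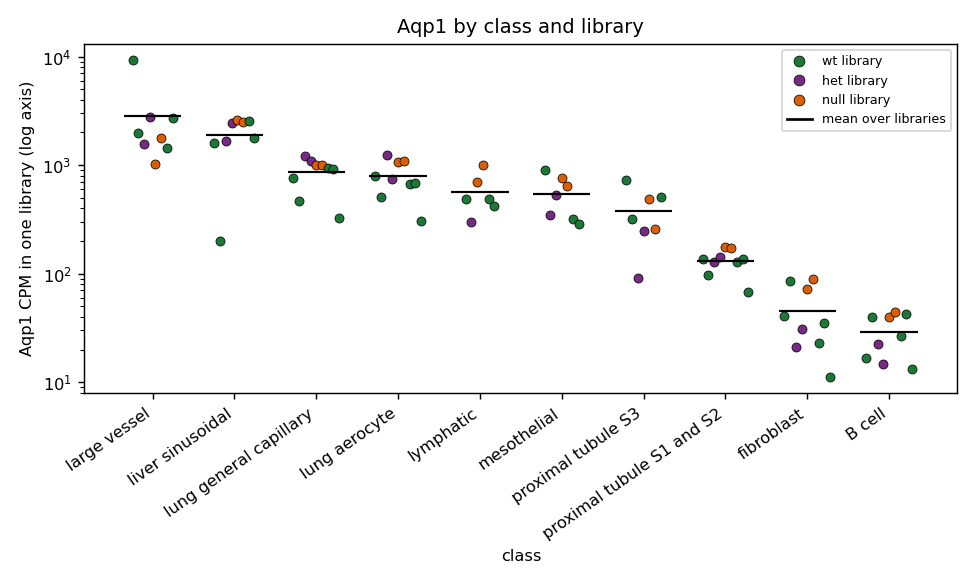
Aqp1 CPM (logarithmic vertical axis) per tissue library in 10 classes and subclasses; each point is 1 library and the bar is the mean over libraries. Large vessel-like (median 1876 CPM) and liver sinusoidal-like barcodes (2112 CPM) overlap, fibroblast-like barcodes (34.9 CPM) lie close to the B cell-like reference.

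Along the kidney tubule Aqp1 was higher in the proximal tubule than in the thick ascending limb, which is impermeable to water. Proximal tubule-like barcodes of 9 libraries ranged from 66 through 142 to 216 CPM and thick ascending limb-like ones from 4.02 through 21.5 to 35.9 CPM, the latter no higher than about the pooled B cell-like level of 35 CPM. The groups did not overlap and the change was 3.03 on the log2 scale (SE 0.23, edgeR adjusted p = 9.75e-10). Aqp11, an unorthodox aquaporin of the endoplasmic reticulum whose loss causes cystic kidneys in mice, ranged from 33.6 through 41.8 to 57.2 CPM in proximal tubule-like barcodes. In thick ascending limb-like ones it ranged from 0 through 1.61 to 7.98 CPM, and the change was 4.37 (SE 0.26, adjusted p = 2.36e-11). A UMI of Aqp11 was present in 18.7% of proximal tubule-like barcodes (3.97% thinned, median depth 3820), against 0.489% of B cell-like ones (0.275% thinned).

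That comparison called 53.1% of 7193 genes, so a call in it is common. Its water balance list ran mostly the other way, with 6 of 7 tested genes lower in the proximal tubule-like class, 1 higher, and a median log2 change of -1.62. Of those lower, Umod and Slc12a1 are gate markers of the thick ascending limb; among the others Slc5a3, the myo-inositol carrier, changed by -5.48 and Adcy6, the adenylate cyclase of the vasopressin response, by -1.62. Slc6a6, the taurine carrier, was higher by 3.19. Of 8 tested genes of glycerol handling 4 were higher, among them Gpd1, glycerol-3-phosphate dehydrogenase (3.97), Tkfc, a dihydroxyacetone kinase (3.86), and Gk, glycerol kinase (3.5), and 3 were lower.

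Aqp7, the glycerol channel of fat cells and of the last proximal tubule segment, had 1676 UMIs in the tissue libraries. Proximal tubule-like barcodes ranged from 4.27 through 8.38 to 17.6 CPM, and thick ascending limb-like ones from 0 to 7.98 CPM with a median of 0. Aqp3 stood at 4.39 through 15.2 to 25.7 CPM in proximal tubule-like barcodes, where 1.42% had a UMI after thinning, against 0.332% of B cell-like ones. These ranges overlapped the thick ascending limb-like ones (0 to 13.2 CPM for Aqp3), and neither gene passed the filter on low counts. Of the Aqp7 UMIs 59.9% lay in proximal tubule-like and 14.7% in endothelial-like barcodes (9.43% of all UMIs), where it ranged from 0.305 through 4.81 to 22.4 CPM (wt replicate 5). All 5 barcodes with at least 5 Aqp7 UMIs were endothelial-like.

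Barcodes like the last straight segment of the proximal tubule (S3) were compared with those like the earlier S1 and S2 segments. Segments were gated on 6 markers each that hold no aquaporin, among all barcodes with a UMI of Miox (Miox-positive). Only 30.1% of Miox-positive barcodes were proximal tubule-like, and segments were not restricted to that class. In wt replicate 2, for example, 2 S3-like barcodes held 67 Aqp2 UMIs. Aqp4 was the member called by edgeR. S3-like barcodes ranged from 8.57 CPM (het replicate 2) through a median of 43.2 to 77.9 CPM (wt replicate 3) over 7 libraries, and S1 and S2-like barcodes from 0 through 1.5 to 6.23 CPM over 9, with no overlap. The paired change was 3.84 on the log2 scale (SE 0.39, edgeR adjusted p = 0.000131), among 10426 genes of which 9.57% were called. A UMI was found in 11.9% of S3-like barcodes (3.02% thinned, median depth 7328), against 0.082% of B cell-like ones (0.038% thinned). DESeq2 also called Aqp3 (-2.3, adjusted p = 0.0245). Aqp8, below the count filter, stood at 4.69, 7.08 and 4.33 CPM in S3-like barcodes of wt replicates 1 to 3, 17.1 CPM (4 UMIs) in het replicate 2 and 0 in the other 3 libraries, against 0 to 0.728 CPM in S1 and S2-like ones. Without the filter it was higher by 3.22 (edgeR adjusted p = 0.0354), where 4.88% of 22667 genes were called. Aqp1 in S3-like barcodes ranged from 91.5 through 317 to 727 CPM and in S1 and S2-like ones from 67.3 through 136 to 177 CPM, so its ranges overlapped. With edgeR and the filter the other members tested did not pass: Aqp1 (0.8, adjusted p = 0.192), Aqp3 (-1.53, 0.198), Aqp7 (0.38, 0.638) and Aqp11 (-0.89, 0.171).

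Genes of the complex that tethers Aqp4 to the membrane (dystroglycan, syntrophins and their partners, 10 listed) were counted in the same comparison. Of 7 tested 0 were called higher and 1, the syntrophin gene Sntb2, was lower (-1.62), with a median log2 change of 0.34. No gene of the water balance list passed there (0 of 7), and of the glycerol list 1 of 9 did, the monoglyceride lipase gene Mgll (1.07).

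Aqp4 was also read outside the kidney. Barcodes of ciliated-like cells, the class that moves mucus along the airway, ranged from 15.6 through 37.7 to 57.8 CPM, with a UMI in 17.1% of them (3.1% thinned, median depth 4113). Squamous and basal epithelium-like barcodes had 97.6 CPM pooled, but from 0 in some libraries to 480 CPM in wt replicate 3, where 1 barcode gave 16 of 36 UMIs. In the same squamous class Aqp3, the glycerol channel of keratinocytes, ranged from 92.7 to 627 CPM, with 331 CPM pooled. Of 203 barcodes with at least 5 Aqp3 UMIs, 132 entered no class. T cell-like barcodes had Aqp3 at 0 through 7.64 to 29 CPM, which overlapped the B cell-like reference of 5.51 CPM pooled.

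Aqp9, the glycerol channel of the hepatocyte, and the water channel Aqp8 were read in liver, and Aqp9 also in blood classes. In hepatocyte-like barcodes (355, of which 38.3% sat at the gate's minimum of 3 markers, with a median of 85.6% mitochondrial UMIs) Aqp9 ranged from 0 through 20.4 to 51.3 CPM over 6 libraries. Neutrophil-like barcodes ranged from 3.42 through 20.7 to 36.6 CPM for Aqp9, and monocyte-like ones had none in 5 of 8 libraries. Epididymal epithelium-like barcodes, where Aqp9 is known in the duct, had 0 through 11.2 to 50.4 CPM. A UMI of Aqp9 was found in 8.17% of hepatocyte-like (2.2% thinned, median depth 4478), 4% of neutrophil-like (2.54% thinned, 1504) and 0.112% of B cell-like barcodes (0.046% thinned). Of 245 Aqp8 UMIs, hepatocyte-like barcodes held 14.3% against 0.435% of all UMIs, proximal tubule-like ones 29.4% against 19.7% and barcodes of no class 41.2%. Aqp8 in hepatocyte-like barcodes ranged from 0 through 11.7 to 24.9 CPM, with a UMI in 6.48% (1.73% thinned) against 0.051% of B cell-like ones.

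Neither Aqp8 nor Aqp9 was abundant enough for the low-count filter in these comparisons. Without that filter Aqp9 was higher in hepatocyte-like than in proximal tubule-like barcodes by 5.62 on the log2 scale (edgeR adjusted p = 1.19e-22) and in neutrophil-like than in monocyte-like ones by 3.7 (adjusted p = 7.72e-15), and Aqp8 was higher in the hepatocyte-like class by 4.59 (adjusted p = 5.03e-15). These unfiltered fits called 16.3% of 19105 genes (hepatocyte-like) and 19.7% of 18218 genes (neutrophil-like). With the filter, Aqp1 (-2.82, SE 0.42, adjusted p = 4.48e-10) and Aqp11 (-2.6, SE 0.58, adjusted p = 7.56e-05) were lower in hepatocyte-like barcodes, where 26.1% of 6527 genes were called. At no more than 25% mitochondrial UMIs, with 2 libraries left, Aqp11 differed by -0.97 and did not pass (adjusted p = 0.481), and the fitted change of Aqp1 was -9.63 (adjusted p = 0.00376). Without het replicate 2 the change of Aqp11 was -4.24 (adjusted p = 0.000284). Aqp1 was higher in neutrophil-like than in monocyte-like barcodes (1.42, SE 0.32, adjusted p = 0.000756, 57.8% of 3809 genes called), but both classes lay near the B cell-like level (38.1 and 17.6 against 35 CPM pooled) and Aqp1 no longer reached the count filter with at least 4 markers, without called doublets, at no more than 25% mitochondrial UMIs, or without wt replicate 1, wt replicate 2 or het replicate 1.

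Circulating ZsGreen+ cells had little aquaporin RNA apart from Aqp9. Aqp2, Aqp4, Aqp5, Aqp6 and Aqp8 had 0 UMIs in all 10 ntCZC libraries (a pooled level of up to 0.224 CPM would pass unseen), whereas the 9 tissue libraries had medians of 0.46 (Aqp8) to 5.93 CPM (Aqp2). Aqp1 had 10 UMIs, Aqp3 7, Aqp11 4 and Aqp7 1. Aqp9 had 95 UMIs and ranged from 0 through 4.38 to 15.4 CPM, overlapping the tissue libraries (1.02 through 3.28 to 4.98 CPM), and stood at 7.73 CPM (11 UMIs) in the PBMC library.

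Over whole libraries (10 ntCZC against 9 tissue, edgeR, 64.5% of 10681 genes called) Aqp1 was lower by a log2 change of -7.81 (adjusted p = 8.58e-11), Aqp11 by -5.46 (5.79e-09) and Aqp3 by -4.39 (5.92e-07). Only these 3 of the 10 reached the filter on low counts, and without it, where 41.5% of 25796 genes were called, 9 were lower and Aqp9 was higher by 1.06 (adjusted p = 0.0146). In such sums fewer cells of a type and less RNA per cell cannot be told apart, and the sort and the tissue differ in every library. Among ntCZC barcodes Aqp9 stood at 76.4 CPM in neutrophil-like ones (1 library), 14.3 to 28.3 CPM in macrophage-like ones and 13.5 to 36 CPM in T cell-like ones, and had 0 UMIs in 276 B cell-like barcodes (exact 95% Poisson limit 1.94 CPM).

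The genotype comparison concerned Aqp4 in Miox-positive barcodes. Miox encodes the inositol oxygenase of the proximal tubule, and 48426 tissue barcodes (35.5% of those with at least 200 genes) had a Miox UMI. This gate also took in 20.1% of B cell-like barcodes, in which free RNA and doublets were not told apart, and 30.1% of its barcodes were proximal tubule-like. Aqp4 in wt libraries stood at 4.7, 4.49 and 9.48 CPM in the male libraries (replicates 1 to 3) and 0.958 and 1.69 CPM in the female ones (replicates 4 and 5). The het libraries, both male, had 5 and 1.82 CPM. The null libraries had 1.83 CPM in the male and 1.47 CPM in the library labelled female. All het and null values lay within the wt range, het replicate 1 only because of wt replicate 3. Het replicate 2 and the male null library lay below every male wt library, and within the wt range only because of the female wt libraries.

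**Figure D5:**
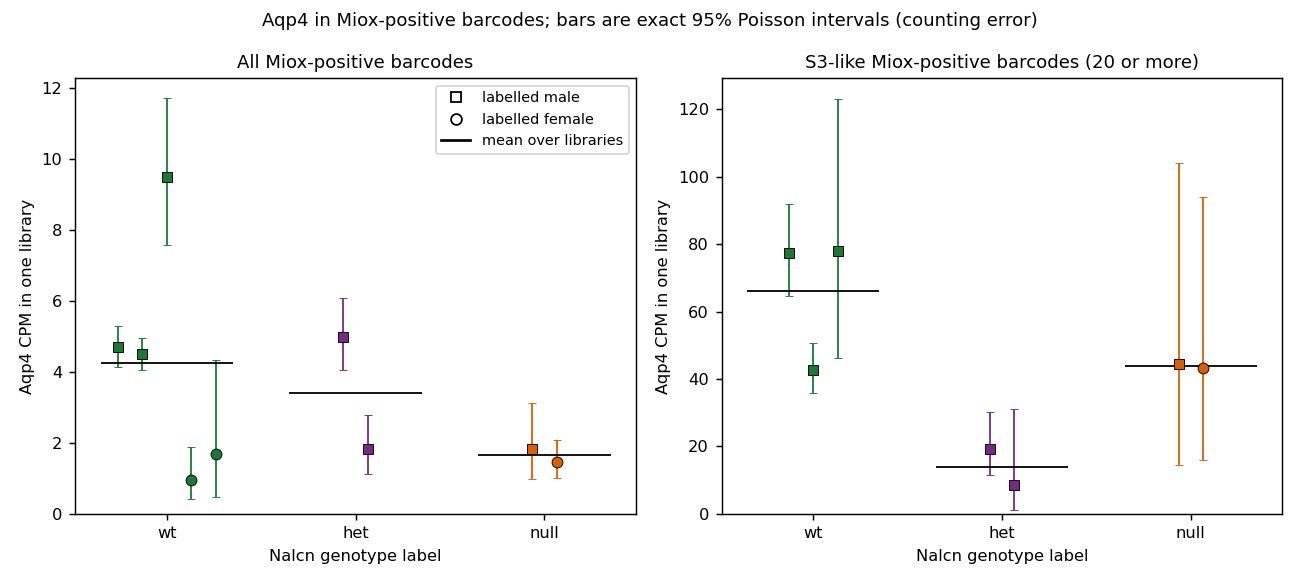
Aqp4 CPM (vertical axis) per tissue library by genotype label in all Miox-positive barcodes and in S3-like barcodes alone, squares for libraries labelled male and circles for female, with exact 95% Poisson intervals. The wt libraries spread from 0.958 to 9.48 CPM among Miox-positive barcodes and take in all het and null values. Het replicate 2 and the male null library lie below every wt library labelled male.

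The means were 4.26 ± 3.35 CPM in wt (SD, n = 5), 3.41 ± 2.25 in het (n = 2) and 1.65 ± 0.25 in null (n = 2). With sex in the model, the log2 change was -1.04 for null against wt (SE 0.66, 2 SE either side -2.36 to 0.29, edgeR adjusted p = 0.731), and 0.05 without null replicate 2. It was -0.7 for het against wt (SE 0.58, 2 SE either side -1.85 to 0.46, adjusted p = 0.736) and -0.34 for null against het (SE 0.78, 2 SE either side -1.91 to 1.23, adjusted p = 1), a direction that turned under 6 of 23 alternatives (range -3.15 to 3.85, the former with at least 10 Miox UMIs, where the null libraries had no Aqp4 UMI and the fitted value depends on the prior count). An exact two-sided permutation test of the CPM values gave p = 0.476 for null against wt and p = 0.952 for het against wt, where 21 splits allow no p below 0.0476. No genotype difference in Aqp4 was detectable at this depth and spread, and 2 SE, which is narrower than a 95% interval with so few libraries, already takes in changes of more than 1 log2 unit. With the proximal tubule-like gate in place of Miox the log2 change for het against wt was -5.23 (edgeR adjusted p = 0.506), from means of 0.071 CPM in het and 2.46 CPM in wt. The het libraries had 0 and 1 Aqp4 UMI under that gate, so this value and the 3.85 above depend on the prior count.

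Both the share of S3-like barcodes and the part of the Aqp4 UMIs in Aqp2-positive barcodes varied between these libraries. S3-like barcodes made up 3.99%, 5.32% and 5.03% of segment-assigned Miox-positive barcodes in the male wt libraries, 0.397% and 1.85% in the female ones, 3.53% and 1.46% in het, and 4.88% and 0.925% in null. Aqp2-positive barcodes gave 50.5% of the Aqp4 UMIs in het replicate 1 and 35.4% in wt replicate 1, and 0% to 25% elsewhere. In het replicate 1 a single principal-like barcode held 34 of 97 Aqp4 UMIs (3.25 CPM without it), and in wt replicate 1 another held 48 of 263 (3.84 CPM without it). In wt replicate 3 a single barcode of no class held 17 of 86 Aqp4 UMIs, and the level without it was 7.62 CPM. The part of the S3-like share, of Aqp2-positive barcodes or of such single barcodes in the Aqp4 values was not tested. In S3-like barcodes alone, an alternative chosen after the data were seen, Aqp4 stood at 77.4, 42.8 and 77.9 CPM in the 3 wt libraries labelled male. The het libraries stood at 19.3 and 8.57 CPM (19 and 2 UMIs) and the null libraries at 44.6 and 43.2 (5 and 6 UMIs). In wt replicate 3 a single barcode of no class held 7 of the 18 UMIs, and the level without it was 49.6 CPM. Het lay below wt (log2 change -2.07, edgeR adjusted p = 0.039, 544 of 4239 genes called), while the exact permutation p was 0.2 and could not fall below 0.1. Over all alternatives the adjusted p of Aqp4 ran from 0.039 to 1 for het against wt and from 0.509 to 1 for null against wt.

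None of the 10 members was called by edgeR in Miox-positive barcodes for null against wt, het against wt or null against het, among 15141 genes of which 0% were called. No member had an unadjusted p under 0.05 in these comparisons, against 7.11%, 8.69% and 1.18% of all genes with edgeR. DESeq2 called no member, and 0.872%, 0.66% and 0% of all genes. Between libraries labelled male and female (0.0132% of genes called) no member was called, and 2 had an unadjusted p under 0.05: Aqp4, higher in males by 1.47 (SE 0.61, adjusted p = 0.773), and Aqp8, with a log2 change of -3.62 (adjusted p = 0.773), of which wt replicate 5 held 40 of its 41 UMIs in 1 barcode. Of the male-biased proximal tubule genes listed, 0 of 7 tested passed, with a median of 0.97, and of the female-biased ones 0 of 5, with a median of -0.07. Endothelial-like barcodes held the RNA of Aqp1 in every group. Its level was 1167, 499, 1022, 880 and 400 CPM in wt replicates 1 to 5, 1166 and 1223 CPM in the het libraries and 864 and 1150 CPM in the null libraries, so all but het replicate 2 lay within the wt range. Aqp1 differed by 0.34 for null against wt (adjusted p = 0.896) and 0.51 for het against wt (adjusted p = 0.716). Only 5 of the 10 members reached the count filter in endothelial-like barcodes, and neither edgeR nor DESeq2 called one. Of all 13328 genes there edgeR called 0% in either comparison, and DESeq2 0.165% (null against wt) and 0.54% (het against wt). With edgeR the unadjusted p was under 0.05 for 0 members in null against wt (6.48% of all genes). In het against wt it was for 1 (Aqp3, with a log2 change of -2.34), and for 9.51% of all genes. Summed over whole tissue libraries, Aqp1 ranged from 57.9 through 153 to 172 CPM in wt, stood at 198 and 201 CPM in het and at 135 and 247.7 CPM in null. Both het values lay above every wt value (log2 change 0.49, SE 0.38, edgeR adjusted p = 0.772). The share of all genes placed like this is not given here, so it is no result about Aqp1. Aqp5 ranged from 1.28 through 2.42 to 4.13 CPM in wt, with 1.32 and 11.8 CPM in het and 3.62 and 8.01 CPM in null (log2 change 0.97 for null against wt, SE 0.64, adjusted p = 0.675). Aqp9 ranged from 1.02 through 2.1 to 4.63 CPM in wt and stood at 3.28 and 4.98 CPM in null (0.61, SE 0.44, adjusted p = 0.694). Apart from Aqp1 in het, the ranges given here overlapped the wt range, as did the het and null ranges of the other 7 members. The share of all genes with such overlap is not given here, so it is no result about the members. In these sums edgeR and DESeq2 called 0 members, with 0 at an unadjusted p under 0.05. Of all 17863 genes edgeR called 0.0112% (null against wt) and 0% (het against wt), and DESeq2 1.93% and 0.409%. With edgeR 9.07% and 7.65% of all genes had an unadjusted p under 0.05. No gene of the water balance, glycerol or anchoring lists was called in any genotype comparison.

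Over 24 classes with at least 100 barcodes, each member's profile was set beside those of all other genes by Pearson correlation of log2(CPM + 1), as a description over classes that share libraries and free RNA. The closest profile to Aqp6 was that of Slc4a9 (0.94), an anion exchanger of intercalated cells, and to Aqp8 that of Akr1c20 (0.95). Aqp5 lay nearest to Slc6a14 (0.94), Aqp1 to Ccdc85a (0.92) and Podxl (0.88), and Aqp4 to Sec14l3 (0.9). Aqp7 (Fmo4, 0.83), Aqp11 (Sectm1b, 0.8), Aqp9 (Ppp1r3b, 0.77) and Aqp3 (Dmrt2, 0.76) had weaker neighbours, and Aqp2 stayed under 10 CPM in all 24 classes, principal-like barcodes being too few to count. Among the members themselves the closest pair was Aqp4 and Aqp5 (0.64), followed by Aqp3 and Aqp6 (0.63).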

How the data were processed

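Single cells were captured in 10x Genomics droplets from pooled mouse organs, from sorted circulating ZsGreen+ cells and from PBMC. The deposited files are filtered matrices of UMI counts per gene and barcode, made by the authors with Cell Ranger on mm10 (version 3.0.2 per the file headers, 2.1.1 in the submitters' processing notes, which also name Seurat). Hashtag counts that tell organs apart were not used here.

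Barcodes with at least 200 genes entered one of 30 classes when at least 3 of 8 markers had a UMI, with a lead of 2 over any other class. Subclasses (within endothelial-like barcodes) and tubule segments (within Miox-positive barcodes) needed 2 of 6 markers and a lead of 1. In the gates 27% of barcodes had too few markers and 18.5% no lead. Just 3 markers were held by 11.9% of principal-like, 30% of intercalated-like, 4.56% of alveolar type 1-like, 16.1% of proximal tubule-like and 10.8% of endothelial-like barcodes. The gates, gene lists and members were chosen with earlier results of these data known. Doublets were kept, and removal of Scrublet calls (scanpy 1.11.5) was an alternative.

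Counts were summed per library and class and tested with edgeR 4.0.16 (TMM, filterByExpr, quasi-likelihood F test, Benjamini-Hochberg over all genes passing the filter), with sex as covariate for genotype and library as block for class pairs of at least 10 barcodes (20 for genotype) in at least 3 libraries. DESeq2 1.42.0, RLE scaling, no filter, other gates, a replicate block and leaving out each library were alternatives. For class pairs an alternative was also run where only 2 libraries were left. Genes named beyond the members come from the lists, with the largest changes among those called, or from the closest profiles. Exact permutation tests used scipy 1.17.1. Simulated counts were fitted only for null against wt in Miox-positive barcodes and for endothelial-like against fibroblast-like barcodes. The other fits were not tested in this way. Intervals of counts and shares are 95% and exact, and like limits from a count of 0 (3 counts) cover counting error only. Fitted changes carry SE or 2 SE. Replicates of a group differed by at least 4.75 times the sampling noise (chi-square per degree of freedom, 25 pairs), so none was treated as a copy of another library. That says nothing of whether libraries share an animal. Figures used matplotlib 3.10.9, and sequences came from RefSeq promoters of GRCm38.p6.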

Additional observations from a re-analysis of the deposited data

Results flagged for a closer look

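Among 46 groups of 4 to 10 libraries examined for 1 library lying far from the rest, 9 had one, where chance gives about 1 in 20 for values that vary evenly. That rate does not hold for groups whose other libraries had 0 UMIs, in which any UMI sets a library apart.

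In whole tissue libraries Aqp8 stood at 5.13 CPM in wt replicate 5, against a median of 0.343 CPM in the other wt libraries. The same library stood apart in Miox-positive barcodes, with Aqp8 at 17.3 CPM against a median of 0.417. There 40 of its 41 Aqp8 UMIs were in 1 barcode of 16290 UMIs that entered no class, and the level without that barcode was 0.425 CPM. Aqp7 in aerocyte-like barcodes was also highest in wt replicate 5, at 47.5 CPM against a median of 6.25, from 5 UMIs of which 3 were in 1 barcode, and 19.9 CPM remained without it. Aqp11 in Miox-positive barcodes was highest in wt replicate 1, at 30.2 CPM against a median of 17.6 in the other wt libraries.

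Among the 4 null ntCZC libraries Aqp9 was highest in replicate 1 at 8.56 CPM, against a median of 3.34 in the other 3, while wt replicate 1 and het replicates 2 and 3 stood higher. The other 4 cases were few UMIs in groups whose other libraries had a median of 0 CPM: Aqp3 in het replicate 2 (2.69 CPM) and null replicate 2 (0.469 CPM), Aqp7 in het replicate 4 (0.385 CPM) and Aqp11 in null replicate 4 (0.557 CPM).

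One tissue library with conflicting genotype entries, replicate 1 from a female, lay above the highest wt library for 3 members over the whole library. Aqp1 stood at 247.7 CPM there against 172 CPM, Aqp2 at 12.7 against 11.3 CPM and Aqp5 at 7.89 against 4.13 CPM.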

How the results depend on the processing

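The main results (Aqp4 by genotype, and the number of members called in each comparison) were recomputed 305 times in all (18 results, 7 to 26 settings each), and 274 kept direction and side of the threshold (counts, within 1.5 times). The 13 single-member calls kept both under 207 of the 209 settings in which the member reached the count filter. The exceptions were Aqp6 between principal-like and intercalated-like barcodes without null replicate 2 (adjusted p = 0.104) and Aqp11 between hepatocyte-like and proximal tubule-like barcodes at no more than 25% mitochondrial UMIs (-0.97, adjusted p = 0.481, 2 libraries left). The causes were not tested.

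For Aqp4 in Miox-positive barcodes, null against wt ranged from -1.98 to 0.047 with 1 library left out, and from -2.07 to -0.61 under other settings, apart from at least 10 Miox UMIs, where both null libraries were at 0 CPM and the fitted -5.53 is no estimate of a fold. Null against het turned positive with at least 3 Miox UMIs (1.79), the proximal tubule-like gate (3.85), Aqp2-positive barcodes left out (0.11) and S3-like barcodes alone (1.46), and ranged from -1.13 to 0.90 with 1 library left out. Het against wt passed the threshold in S3-like barcodes alone (-2.07) and otherwise ranged from -5.23 to -0.43, or -1.38 to -0.25 with 1 library left out, and its difference in CPM ranged from -2.44 to 0.73 with 1 library left out. The -5.23 and the 3.85 came from the proximal tubule-like gate, where the het libraries had 0 and 1 Aqp4 UMI, and are no estimates of a fold. The gates by Aqp2 and S3 were chosen after seeing the data.

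Without the filter on low counts more members were called (in brackets, the unfiltered share of all genes). Between ntCZC and tissue 10 were called against 3 with it (41.5%), and in the principal-like comparison 5 against 2 (2.24%). The thick ascending limb-like comparison called 6 against 2 (27.4%), S3-like 2 against 1 (4.88%) and endothelial-like 3 against 1 (28.2%). The lung capillary one called 1 against 0 (Aqp7, higher in aerocyte-like, 8.94%), hepatocyte-like 6 against 2 (16.3%) and neutrophil-like 2 against 1 (19.7%). DESeq2 called 2 in the S3-like comparison (with 13.8% of all genes), and leaving out 1 library gave 1 to 2 there. Between endothelial-like and fibroblast-like barcodes 2 were called with at least 20 barcodes, 2 at no more than 25% mitochondrial UMIs and 1 to 2 with 1 library left out. At no more than 25% mitochondrial UMIs the hepatocyte-like comparison called 1. The neutrophil-like comparison called 0 at that setting, with at least 4 markers and without Scrublet calls, and 0 to 1 with 1 library left out.

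The replicate numbers were not taken to pair the samples: in 5 pairs of same-numbered tissue libraries of different genotype, deviations correlated at -0.245 to 0.00271 (ntCZC with tissue not checked). With the replicate block in place of sex, Aqp4 gave -2.02 (null against wt), -0.67 (het against wt) and -1.35 (null against het), and the number of members called was 0 in each endothelial-like and whole tissue comparison and 3 between ntCZC and tissue, as without it. With the block the whole tissue comparison of null against wt called 0 genes in place of 2.

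Counts of all genes called moved by over 1.5 times as follows. DESeq2 called 132, 100 and 50 genes in Miox-positive barcodes (null against wt, het against wt, male against female) against 0, 0 and 2, 22 and 72 in endothelial-like barcodes against 0 and 0, and 345 and 73 in whole tissue libraries against 2 and 0. Without the filter the counts were 21 and 1 in Miox-positive barcodes (null, het against wt), 17 and 190 in endothelial-like ones, 17 in whole tissue (null against wt), 10698 against 6891 between ntCZC and tissue, 323 against 100 (principal-like), 5847 against 3819 (proximal tubule-like and thick ascending limb-like), 1287 against 532 (alveolar), 3108 against 1704 (hepatocyte-like) and 3588 against 2200 (neutrophil-like). At no more than 25% mitochondrial UMIs they were 1020 (proximal tubule-like and thick ascending limb-like), 306 in place of 998 (S3-like), 692 (hepatocyte-like), 1455 (neutrophil-like) and 0 (whole tissue, null against wt). Other gates gave male against female in Miox-positive barcodes 9 (at least 3 Miox UMIs), 6 (at least 10), 8 (proximal tubule-like) and 0 (S3-like). With 1 library left out the counts ran from 0 to 41 (Miox-positive, null against wt, highest without wt replicate 1), 0 to 1 (het against wt), 2 to 7 (male against female, highest without either null library), 0 to 16 (whole tissue, null against wt, highest without wt replicate 1), 36 to 191 (principal-like, without null replicate 2 and wt replicate 1) and 648 to 866 (S3-like, lowest without wt replicate 1). The lung capillary comparison called 556 in place of 1464 without the library block, and barcodes of at least 200 genes gave 1 for null against wt in whole tissue.

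Few libraries, 2 each in het and null, and few Aqp4 UMIs (4 in wt replicate 5, 8 in wt replicate 4, 13 in null replicate 2) limit the genotype comparison. The gate of at least 4 of 8 markers was not run for tubule segments, with their 6 markers, and settings that remove barcodes left too few principal-like ones.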

Other observations

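The 2 tissue libraries with conflicting genotype entries had Aqp4 in Miox-positive barcodes at 1.35 CPM (replicate 3, male, 7 UMIs) and 2.2 CPM (replicate 1, female, 16 UMIs). Aqp2-positive barcodes held 43.8% of the Aqp4 UMIs in the latter and none in the former. Their Miox-positive barcodes had Aqp1 at 146 and 206 CPM, Aqp7 at 4.83 and 6.59 CPM and Aqp11 at 26.7 and 16.5 CPM.

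Aqp11 in large vessel-like barcodes ranged from 0 through a median of 37.3 to 138 CPM (wt replicate 1, 18 barcodes), with a UMI in 10% of barcodes (3.93% after thinning), against 0.489% of B cell-like ones. Aqp7 in S3-like barcodes ranged from 1.02 through 13 to 35.7 CPM. A single podocyte-like barcode held 47 Aqp2 UMIs, all that were read in the 33 barcodes of that class. In principal-like barcodes of null replicate 2 all 55 Aqp1 UMIs lay in 1 barcode.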
